A study of Bos taurus with 46 samples.

Results

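Cathelicidins and neutrophil granule proteins were described in the circulating leukocytes of pregnant heifers through 10 genes, *CATHL1* to *CATHL6*, *LTF*, *LCN2*, *PGLYRP1* and *BPI*. The members were taken by symbol from the NCBI count table, and all 10 of the 10 listed symbols were present among its 30675 genes, of which 25404 had a read. RNA of leukocytes from the buffy coat, with red cells lysed, was sequenced from 23 Angus crossbred heifers on gestation D55 and again on D105, giving 46 libraries. The heifers carried fetuses conceived by artificial insemination (AI, the control, n = 8), or fetuses from embryos produced *in vitro* that stayed below the weight at which the study defined large offspring syndrome (IVP-Normal, n = 6) or reached it (IVP-LOS, n = 9). Embryos of the IVP groups came from *Bos taurus taurus* oocytes and *Bos taurus indicus* semen, and 2 blastocysts were transferred to each heifer. A library had 18692653 to 24502012 reads on genes, and the leukocyte genes *PTPRC*, *CD53*, *CORO1A* and *LCP1* summed to 4046 to 6697 CPM, the read count scaled to the size of its library. The labels put the D105 libraries of AI and IVP-LOS heifers in a set named BACKUP (17 libraries) and all others in a set named New (29 libraries), so day and set cannot be told apart in AI and IVP-LOS heifers, whereas both days of IVP-Normal heifers lie within New. The study places the D55 and D105 blood in different seasons, so day and season cannot be told apart in any group.

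Neutrophils carry their antimicrobial proteins in granules that are filled one kind after another while the cell matures in the bone marrow. Azurophil granules form first and hold myeloperoxidase, elastase and BPI, specific granules follow with lactoferrin and lipocalin 2, and gelatinase granules come last. The messages for these proteins are made mainly in marrow precursors and are largely shut off in the mature cell, which keeps the protein. Cattle have a large cathelicidin family, whose members share a precursor region and differ in the peptide released from it.

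The cathelicidins were almost unread in these leukocytes, whereas the other 4 members were read in every library. Over the 46 libraries *CATHL2* (Bac5, a proline-rich peptide) had 145 reads in all, *CATHL5* had 41, *CATHL3* (Bac7, also proline-rich) had 36, *CATHL6* had 12, *CATHL1* had 7 and *CATHL4* (indolicidin) had 1. Over the same libraries *LCN2* had 36697 reads, *BPI* had 12692, *PGLYRP1* had 1236 and *LTF* had 884. These are reads and not levels per length, so they do not rank the genes by amount of RNA.

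*CATHL2* was the cathelicidin read in most libraries. It had 0 to 8 reads per library on D55 (median 3) and 0 to 11 on D105 (median 3), with at least 1 read in 22 of the 23 D55 libraries and in 18 of the 23 D105 libraries. The highest D105 counts were 11 in IVP-Normal heifer 633, 10 in AI heifer 517 and 9 in IVP-LOS heifer 604, 1 in each group. Its values on D55 and D105 overlapped in all 3 groups.

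*CATHL3* was read more on D105 than on D55. It had 4 reads over the 23 D55 libraries, with at most 1 in a library, and 32 over the 23 D105 libraries, with 0 to 6 in a library. Reads were present on D105 in 5 of 8 AI, 4 of 6 IVP-Normal and 3 of 9 IVP-LOS heifers, and 11 of the 23 D105 libraries had none.

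*CATHL1*, *CATHL4* and *CATHL6* had no read in any of the 23 D55 libraries. On D105 *CATHL6* had 12 reads in 6 libraries, *CATHL1* had 7 in 6 libraries and *CATHL4* had 1 in 1 library. *CATHL5* had 19 reads on D55 and 22 on D105, with at most 4 in a library. A count of 0 allows up to 3 reads, which at these depths was 0.12 to 0.171 CPM, so no fold was drawn between a group at 0 and another at or under that limit.

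All 6 cathelicidins together had 83 reads on D55 (1 to 9 per library, median 3) and 159 on D105 (0 to 21 per library, median 5). The 21 reads were in IVP-Normal heifer 633. Of the 276 values of the 6 genes in 46 libraries, 91 were above 0, 20 were above 3 reads and 1 was above 10 reads.

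**Figure D1:**
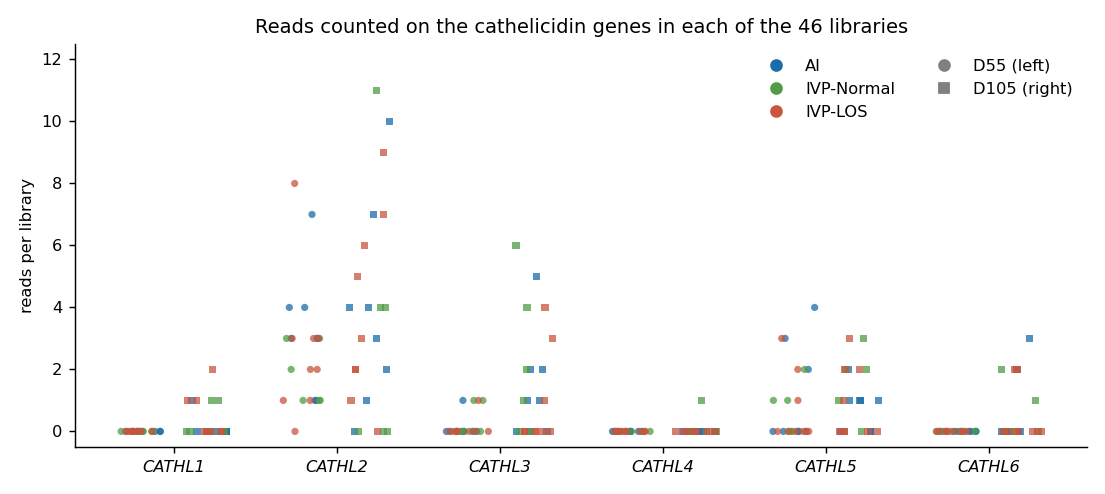
Reads counted on each cathelicidin gene (x axis) in each of the 46 libraries (y axis, reads per library on a linear scale), with D55 libraries as circles on the left and D105 libraries as squares on the right, colored by group. All values lie between 0 and 11, and *CATHL1*, *CATHL4* and *CATHL6* are at 0 in every D55 library.

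The low counts lay within 1 stretch of the genome. The counts were made on another assembly, but in RefSeq's order of genes on ARS-UCD2.0 the cathelicidin genes follow each other on chromosome 22 between *NME6* and *CDC25A*, with *CAMP*, which that table also calls *CATHL7*, at the *NME6* end. *CAMP* had 12 reads over the 46 libraries, 1 of them on D55 and 11 on D105. The flanking genes *NME6* and *CDC25A* had 10485 and 7162 reads. The counting left out reads that align to more than 1 place (7.72% to 9.55% of a library), and whether reads shared between the similar cathelicidin genes were lost in this way was not tested.

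**Figure D2:**
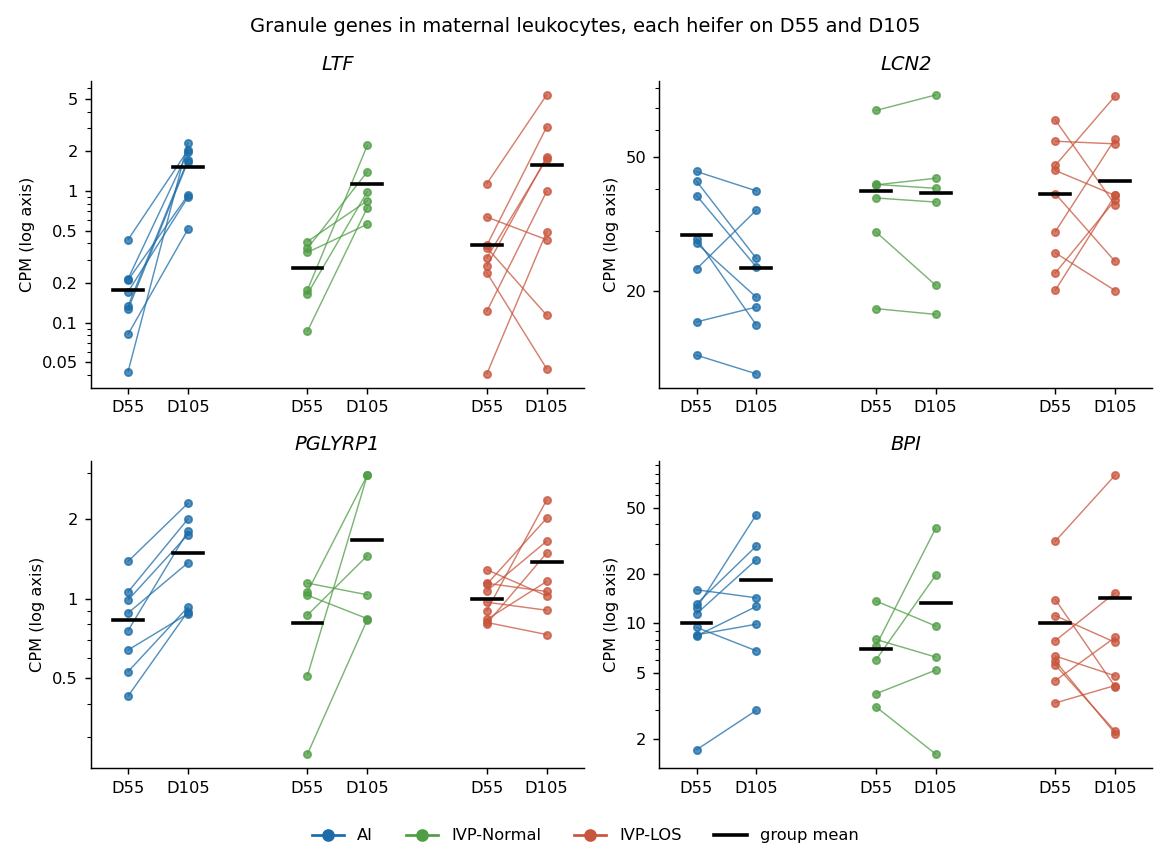
Level of *LTF*, *LCN2*, *PGLYRP1* and *BPI* in CPM on log axes, with 1 line per heifer from D55 to D105, colored by group, and black bars at group means. *LTF* lines rise in all 8 AI and all 6 IVP-Normal heifers and fall in 3 of 9 IVP-LOS heifers, whereas *LCN2* lines run in both directions in each group.

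Levels below are in CPM after TMM scaling, and differences are log2 fold changes from edgeR's quasi-likelihood F-test with the false discovery rate (FDR) over all genes tested, called at 0.05. Genes under the expression filter (a minimum count of 10) were not tested, which left out all 6 cathelicidins in each comparison of days. With the filter removed no cathelicidin was called in any comparison of days, and the smallest FDR was that of *CATHL3* in AI heifers (2.64, SE 0.89, FDR 0.0992), a fitted value resting on 1 read on D55 and 11 on D105. In a mixed leukocyte sample, fewer cells of a type and less RNA per cell cannot be told apart.

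*LTF*, which encodes the iron-binding lactoferrin of specific granules, was higher on D105. In AI heifers it ranged from 0.0425 to 0.427 CPM on D55 (median 0.153, 1 to 10 reads) and from 0.512 to 2.31 CPM on D105 (median 1.7, 11 to 52 reads). Every AI heifer had more on D105, and the lowest D105 value lay above the highest D55 value. The mean rose from 0.176 ± 0.118 to 1.51 ± 0.646 CPM (SD, n = 8), an 8.55-fold ratio, with a log2 fold change of 3.06 (SE 0.38, FDR 7.72e-05). *LTF* took rank 63 of 15248 genes in this comparison, in which 9.95% of genes were called. *LTF* passed the filter there through its D105 libraries, the day on which it was high, and with no filter its log2 fold change was 3.05 (FDR 7.52e-05). *LTF* was 1 of 4 members tested there and the only 1 called.

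The same order of days was seen in IVP-Normal heifers, whose libraries share 1 set. *LTF* ranged from 0.0863 to 0.413 CPM on D55 (median 0.26, 2 to 10 reads) and from 0.558 to 2.21 CPM on D105 (median 0.914, 12 to 46 reads). All 6 heifers had more on D105 and the ranges did not overlap. The log2 fold change was 2.09 (SE 0.42, FDR 0.016, rank 208), where 2.45% of genes were called. It passed the filter through the D105 libraries here as well, and with no filter the fold change was 2.09 (FDR 0.0163). The call rested on single heifers, since the FDR was 0.0749 without heifer 560, 0.0752 without 628 and 0.0518 without 688, with fold changes of 1.73 to 2.34 over these 3.

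*LTF* was spread widely in IVP-LOS heifers, with a coefficient of variation of 110.7% on D105 against 42.9% in AI and 53.7% in IVP-Normal heifers. It ranged from 0.0409 to 1.14 CPM on D55 (median 0.311) and from 0.0448 to 5.35 CPM on D105 (median 0.992). It was higher on D105 in 6 of 9 heifers and lower in 557 (6 reads on D55, 1 on D105), 604 (9 and 2) and 664 (15 and 8). Heifer 616 had the highest *LTF* of the 23 heifers on each day, with 1.14 and 5.35 CPM.

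*LTF* did not pass the expression filter in the IVP-LOS comparison of days and was thus not tested there, where 0.251% of genes were called. Without the filter its log2 fold change was 2 (SE 0.67, FDR 0.24), and with heifer in the model as a block as well, a fit added after the data were seen, it was 1.7 (SE 0.49, FDR 0.133). Without heifers 604 and 664 it passed the filter with 2.42 (SE 0.74, FDR 0.254). The change between days did not differ beyond its error between the groups. Against AI heifers it was lower by 1.06 in IVP-LOS (95% interval of the difference -2.70 to 0.58, FDR 0.914) and by 0.97 in IVP-Normal heifers (-2.11 to 0.18, FDR 1), on the log2 scale.

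*PGLYRP1* encodes a granule protein that binds bacterial peptidoglycan. In AI heifers it ranged from 0.429 to 1.39 CPM on D55 (median 0.821) and from 0.878 to 2.3 CPM on D105 (median 1.56), on 10 to 31 and 19 to 52 reads. It was higher on D105 in all 8 heifers, though the ranges overlapped, and 4 of the D105 values lay above all D55 values. The log2 fold change was 0.84 (SE 0.27, FDR 0.0567), just above the threshold. With heifer as a block it was 0.83 (FDR 0.00208) and *PGLYRP1* was called, as were 17.1% of genes.

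In the IVP groups *PGLYRP1* was not called. It was higher on D105 in 4 of 6 IVP-Normal heifers (log2 fold change 1.03, SE 0.43, FDR 0.306), where 633 and 628 had the highest levels of the 23 heifers, 2.93 and 2.94 CPM. It was higher in 5 of 9 IVP-LOS heifers (0.48, SE 0.21, FDR 0.356). IVP-LOS heifers were close to each other on D55, with 0.806 to 1.29 CPM and a coefficient of variation of 17.3%, against 37.4% in AI and 43.4% in IVP-Normal heifers. With the heifer block 5.5% and 1.07% of genes were called in IVP-Normal and IVP-LOS heifers, and *PGLYRP1* was not among them.

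*BPI*, the bactericidal/permeability-increasing protein that binds lipopolysaccharide, varied widely between heifers. In AI heifers it ranged from 1.73 to 16 CPM on D55 and from 2.99 to 45.4 CPM on D105 (median 13.5). It was higher on D105 in 6 of 8 AI heifers, in 3 of 6 IVP-Normal and in 4 of 9 IVP-LOS heifers, and the ranges of the days overlapped in each group. No fold change was called (0.85, SE 0.46, FDR 0.291 in AI, 0.93, SE 0.60, FDR 0.55 in IVP-Normal, and 0.51, SE 0.66, FDR 0.804 in IVP-LOS heifers).

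Heifer 637 stood far above the rest for *BPI*. She had 31.4 CPM on D55, where the other 22 heifers had at most 16, and 78.5 CPM on D105, where the next was AI heifer 546 with 45.4. Without 637 the IVP-LOS fold change between days turned to -0.25 (FDR 0.847). At the low end AI heifer 533 had 1.73 CPM on D55 and IVP-Normal heifer 560 had 1.63 CPM on D105, and both were low on the other day too (2.99 and 3.14 CPM).

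*LCN2*, which encodes the siderophore-binding lipocalin 2 of specific granules, was not called between days in any group. In AI heifers it ranged from 12.8 to 45.2 CPM on D55 (median 28.1) and from 11.3 to 39.6 CPM on D105 (median 21.3), and it was lower on D105 in 6 of 8. In IVP-Normal heifers the mean was 39.4 ± 16.9 CPM on D55 and 39 ± 21.2 on D105 (SD, n = 6), and in IVP-LOS heifers 38.9 ± 15.5 and 42.3 ± 17.3 (SD, n = 9). The log2 fold changes were -0.32 (SE 0.28, FDR 0.549), -0.02 (SE 0.36, FDR 0.99) and 0.13 (SE 0.26, FDR 0.882). Their 95% intervals lay between -0.86 and 0.68 in the 3 groups.

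No member's change between days was called different from one group to another. In the 3 tests of that difference 0% of genes were called, with or without heifer as a block, although 134 to 795 genes had an unadjusted p under 0.05 without the block and 449 to 1674 with it. By the likelihood ratio tests of edgeR and DESeq2, 0 and at most 1 gene were called. Over *LCN2*, *PGLYRP1* and *BPI* the differences lay between -0.56 and 0.46 on the log2 scale.

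**Figure D3:**
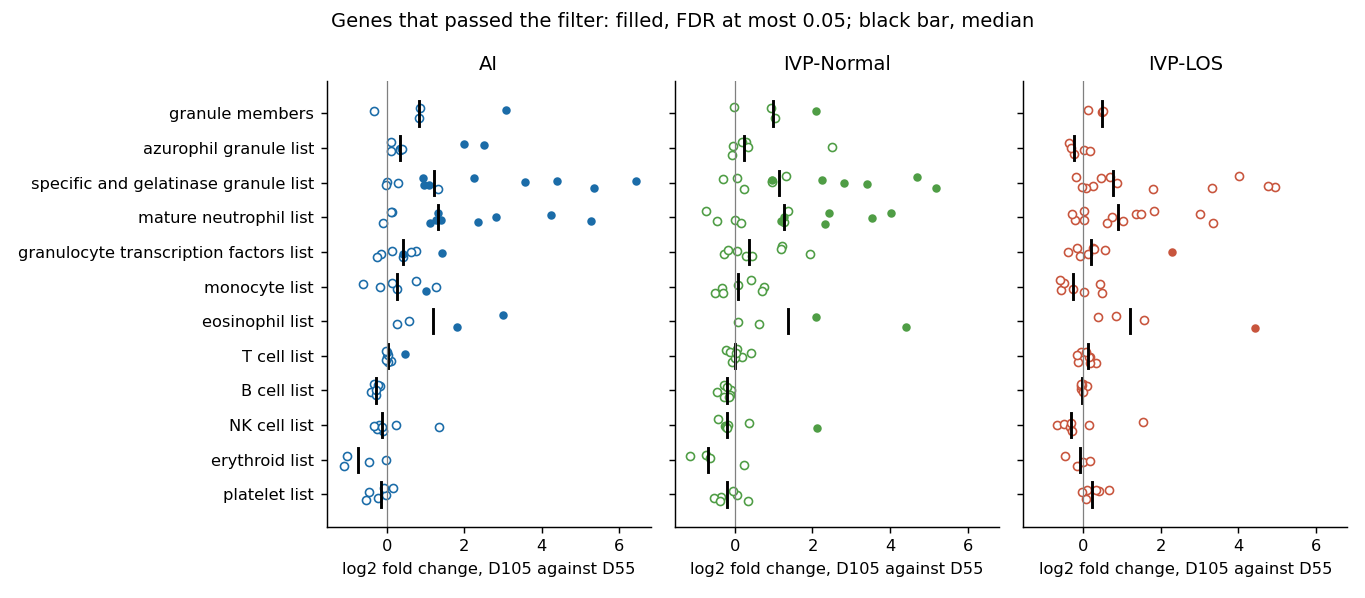
Log2 fold change of D105 against D55 (x axis, linear) for the members and for genes of each list that passed the filter (rows), in 3 panels by group, with filled points for an FDR of at most 0.05 and black bars at the median. The specific and gelatinase granule and mature neutrophil rows have medians of 1.22 and 1.31 in AI heifers and 1.15 and 1.26 in IVP-Normal heifers, and 0 filled points in IVP-LOS heifers.

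Several other genes of the same granules rose beside *LTF* in AI and IVP-Normal heifers, though *LCN2* of the specific granules did not. The lists used here and below were chosen with earlier results of these data known, so their counts are no independent support. A listed gene that was low on D55 could pass the filter through its D105 libraries, and the lists were not counted without the filter. Of 18 further specific and gelatinase granule genes, 12 were tested in AI heifers, 8 were higher on D105 and none was lower, with a median log2 fold change of 1.22 against -0.02 over all genes tested. Of all genes 9.95% were called in AI heifers, 1100 higher and 417 lower, and 2.45% in IVP-Normal heifers, 346 higher and 28 lower, so that called genes leaned higher in general. Of these granule genes, the 4 with the smallest FDR values in AI heifers were *PTX3*, a pattern recognition protein (6.43, SE 0.64, FDR 2.22e-05), *TCN1*, a vitamin B12 binder (5.35, SE 0.56, FDR 3.24e-05), *MMP9*, gelatinase B (4.40, SE 0.50, FDR 4.9e-05), and *CD24*, a surface protein (3.57, SE 0.42, FDR 5.9e-05). In IVP-Normal heifers 6 of 12 were higher and none lower (median 1.15, and 9 of 12 with heifer as a block, where 5.5% of all genes were called), and in IVP-LOS heifers none of 12 was called (median 0.78, and 0.38 with heifer as a block). The IVP-Normal count was 2 without heifer 560, 633 or 688 and 3 without 628, and the IVP-LOS count was 2 without 616.

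*BPI* belongs with the azurophil granule genes. In AI heifers 2 of 7 tested were higher on D105 and none lower (median 0.35, beside 9.95% of all genes called), namely *MPO*, myeloperoxidase (2.52, SE 0.61, FDR 0.0119), and *ELANE*, neutrophil elastase (2, SE 0.55, FDR 0.0273), whereas *SERPINB1*, an elastase inhibitor, had 0.39 (FDR 0.0875) and *CD63*, a granule membrane protein, 0.35 (FDR 0.197). With heifer as a block 4 of 7 were called, beside 17.1% of all genes, and without the block 0 were called without 609 and 1 without 517, 533, 606 or 648. None of 6 was called in IVP-Normal and none of 5 in IVP-LOS heifers. *PRTN3* and *AZU1*, which belong to the same granule, had at most 6 reads in a library.

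Genes that mark the mature neutrophil moved with *LTF* as well. In AI heifers 8 of 11 tested were higher on D105 and none lower (median 1.31), beside 9.95% of all genes called. In IVP-Normal heifers 6 of 12 were higher (median 1.26), beside 2.45% of all genes, which became 8 with heifer as a block and 2 without 560, 628, 633 or 688. Of this list, the 4 genes with the smallest FDR values in AI heifers were the chemokine receptors *CXCR2* (4.24, SE 0.50, FDR 5.9e-05) and *CXCR1* (5.26, SE 0.63, FDR 6.21e-05), *MXD1*, a MYC antagonist (2.82, SE 0.36, FDR 8.53e-05), and *VNN2*, a surface protein (2.34, SE 0.30, FDR 0.000101). The summed level of the 12 genes in the table was 829.6 to 1334 CPM on D55 and 1571 to 4265 CPM on D105 in AI heifers, and 767.3 to 1148 and 1262 to 4478 CPM in IVP-Normal heifers, without overlap in either group. In IVP-LOS heifers it was 819.9 to 1396 and 720.6 to 6821 CPM, and none of 12 genes was called (2 without 616). *CSF3R* and *FPR1* were not in the table under these symbols, and several of the others, such as *ITGAM*, are also expressed by monocytes or lymphocytes. The part of the neutrophil share of the sample in the *LTF* result was not tested.

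Of 8 granulocyte transcription factors, 2 were higher in AI heifers (5 with the heifer block), *STAT3* (0.43, SE 0.10, FDR 0.00668) and *CEBPE*, a factor of the granule program (1.43, SE 0.39, FDR 0.0267), followed by *SPI1* (0.42, FDR 0.0516) and *CEBPB* (0.76, FDR 0.0648). In IVP-Normal heifers *CEBPE* had 1.93 (FDR 0.135) and none was called, though *CEBPE* was with heifer as a block (1.81, FDR 0.0201). *CEBPE* was called in IVP-LOS heifers (2.30, SE 0.47, FDR 0.0492), though not with heifer as a block (FDR 0.0519). With single heifers left out the AI count was 1 without 517, 546, 590, 606 or 648. The IVP-LOS count was 1 without 557 or 616 and 0 without any other IVP-LOS heifer. Eosinophil genes were higher too, 2 of 4 in AI, 2 of 4 in IVP-Normal and 1 of 4 in IVP-LOS heifers, beside 9.95%, 2.45% and 0.251% of all genes. These counts fell to 1 in AI heifers without 606, to 1 in IVP-Normal heifers without 560, 628, 633 or 669, and to 0 in IVP-LOS heifers without 656. Of monocyte genes 1 of 7 was higher in AI heifers, of T cell genes 1 of 8, and of B cell, NK cell, erythroid and platelet genes none was called there, counts near or under the 9.95% of all genes. With the heifer block, which called 17.1% of all genes, 3 of 7 monocyte genes were higher and 1 lower, and 2 B cell and 2 erythroid genes were lower. The number of monocyte genes called higher became 3 without heifer 609 and 0 without any other AI heifer.

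In IVP-LOS heifers the list counts were also taken without single heifers, as alternatives added after the data were seen. Without 604 and 664, where 0.0788% of genes were called, the medians of the specific and gelatinase granule and mature neutrophil lists were 0.92 and 1.05, and without 637, where 0.158% were called, they were 0.20 and 0.45. Neither list had a called gene in either case.

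The treatment groups were compared within each day. On D55 none of the members tested, *LCN2*, *PGLYRP1* and *BPI*, was called in any of the 3 comparisons, and 0% of genes were called. Between 802 and 1522 genes had an unadjusted p under 0.05, and the likelihood ratio tests of edgeR and DESeq2 called 1 to 3 and 1 to 15 genes, none of them a member. *LTF* did not pass the filter on D55. Its D55 means were 0.176 ± 0.118 CPM in AI (n = 8), 0.258 ± 0.132 in IVP-Normal (n = 6) and 0.39 ± 0.327 in IVP-LOS heifers (SD, n = 9), and the 3 ranges overlapped. *BPI* in IVP-LOS against IVP-Normal heifers differed by 0.55 on D55 (SE 0.47, FDR 0.859), and by 0.08 without heifer 637.

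On D105 0% of genes were called with all heifers in the 3 comparisons of treatments. Between 501 and 1477 genes had an unadjusted p under 0.05, and the likelihood ratio tests of edgeR and DESeq2 called 3 to 11 and 3 to 43 genes, none of them a member. Without heifer 637, IVP-LOS against AI heifers gave 10 called genes, none of them a member, and 2652 with an unadjusted p under 0.05. *LCN2* averaged 23.3 ± 9.6 CPM in AI (SD, n = 8) against 42.3 ± 17.3 in IVP-LOS heifers (SD, n = 9), a log2 difference of 0.87 (SE 0.27, FDR 0.754) within the set BACKUP. The ranges were 11.3 to 39.6 and 20 to 75.8 CPM and overlapped. In IVP-Normal heifers it was higher than in AI heifers by 0.75 (SE 0.33, FDR 0.514), a comparison in which set and group cannot be told apart. Without 604 and 664 the difference between IVP-LOS and AI heifers was 0.61. *LTF*, *PGLYRP1* and *BPI* differed by -0.44 to 0.49 in the 3 comparisons, with standard errors of 0.27 to 0.82. Heifer 637 decided the *BPI* values, which without her were -1.12 in IVP-LOS against IVP-Normal (FDR 0.874) and -1.56 against AI heifers (FDR 0.149).

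The study sets apart heifers 604 and 664, dams of its heaviest IVP-LOS fetuses, also because they separated in its hierarchical clustering of these transcriptomes. They were compared here with the other 21. The pair was thus chosen in part from the data compared, so calls over all genes on D105 are no independent test of it. On D55 their members lay within the range of the others and none was called, where 0.0179% of genes were called. Their *LTF* on D55 was 0.371 and 0.633 CPM against a median of 0.21 among the others (0.94, SE 0.66, FDR 0.948).

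On D105 *LTF* and *BPI* were low and *LCN2* was high in both. Their D105 libraries also stood apart in the share of reads on no annotated feature, 32.39% in 604 and 30.44% in 664 against 20.21% to 25.92% in the others, and its part in the member values was not tested. *LTF* was 0.114 and 0.426 CPM against 0.0448 to 5.35 in the others (median 1.4), and only IVP-LOS heifer 557 was lower than either. *BPI* was 2.17 and 2.24 CPM against 1.63 to 78.5 (median 9.65), with only IVP-Normal heifer 560 lower. *LCN2* was 56.5 and 75.8 CPM against 11.3 to 76.4 (median 34.7), with only IVP-Normal heifer 519 above both.

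None of these differences passed the threshold in a comparison where 21.1% of all genes did. The log2 difference was -2.47 for *LTF* (SE 1.01, FDR 0.0798), -2.91 for *BPI* (SE 1.26, FDR 0.0949), 1.05 for *LCN2* (SE 0.42, FDR 0.0698) and -0.24 for *PGLYRP1* (SE 0.48, FDR 0.73). Within the set BACKUP, where 29.9% of genes were called, *LCN2* was called (1.19, FDR 0.0244). *CATHL2* passed the filter here, with 9 and 2 reads against 0 to 11 in the others, and was not called (0.93, SE 0.97, FDR 0.496).

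**Figure D4:**
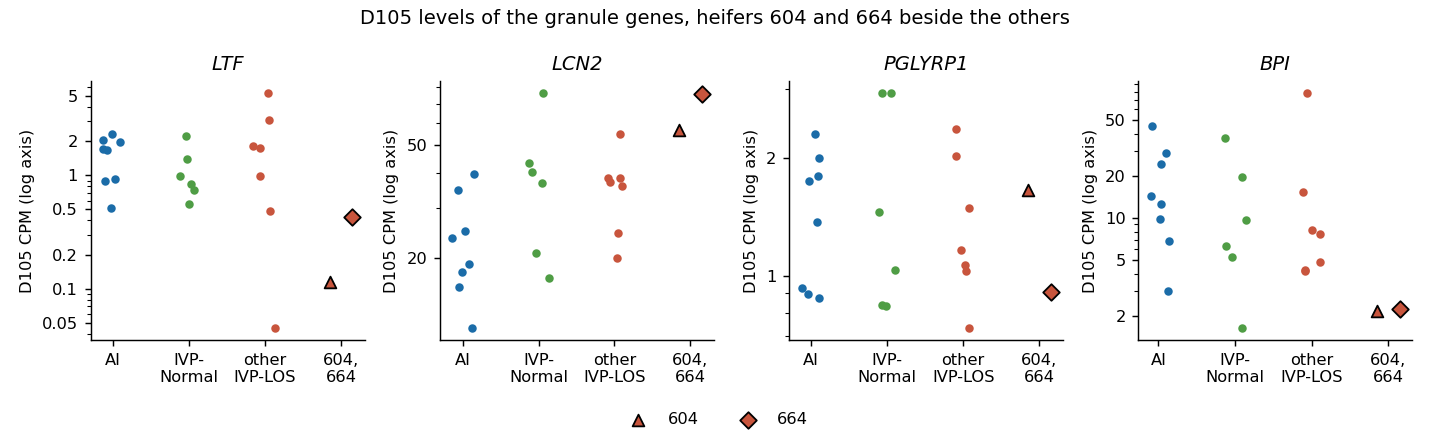
D105 level of *LTF*, *LCN2*, *PGLYRP1* and *BPI* in CPM (log axes) in AI, IVP-Normal and other IVP-LOS heifers, with heifers 604 (triangle) and 664 (diamond) apart on the right. Both lie among the lowest values of *LTF* and *BPI* and among the highest of *LCN2*, and all lie within the range of the other heifers.

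Granule and neutrophil genes called in the pair were lower, in a comparison that called 21.1% of all genes. On D105 5 of 15 specific and gelatinase granule genes (median -3.16), 7 of 12 mature neutrophil genes (median -2.31), 2 of 7 azurophil granule genes and 5 of 8 monocyte genes were lower and none was higher, whereas 5 of 6 platelet and 3 of 7 B cell genes were higher. Over all 16841 genes tested, 1954 were called higher and 1596 lower. Counted in either direction, the shares of the azurophil and the specific and gelatinase granule lists lay above the 21.1% of all genes, on few genes each. The summed mature neutrophil level was 720.6 and 847.1 CPM against 932.2 to 6821 in the others, and the part of this in the member values was not tested. Cell division genes summed to 96.7 and 101.3 CPM against 151.5 to 439 CPM, without overlap. Erythroid genes summed to 136.6 and 595 CPM against 11.8 to 155 CPM (median 63.4), so only 1 of the pair lay above the others. With 1 of the pair left out, 1 library stood against 21 and was assumed to vary like the others. Without 604 (3.27% of genes called) or without 664 (4.17%), no gene of the 2 granule lists, the mature neutrophil list or the monocyte list was called, with medians of the specific and gelatinase granule list at -3.26 and -3.12. No B cell gene was called in either case, and platelet genes were called without 664 (5 of 6) but not without 604. Within BACKUP 1 specific and gelatinase granule gene was higher and 5 were lower. These 3 alternatives were added after the data were seen. The libraries of 604 and 664 on D105 had 18692653 and 19641136 reads on genes, the former being the fewest of all.

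**Figure D5:**
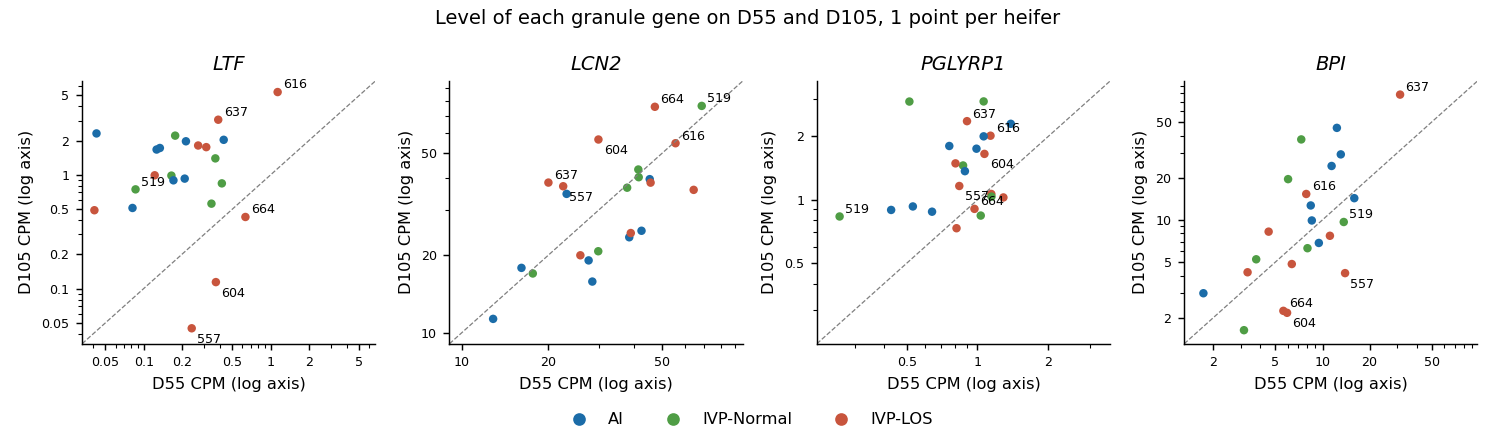
D105 level against D55 level of each of the 4 read members in CPM (both axes log), 1 point per heifer colored by group, with the line of equal levels dashed and 6 heifers numbered. *LCN2* and *BPI* points lie on both sides of the line. Some *BPI* points are far from it, such as 637 (31.4 CPM on D55 and 78.5 on D105) and 557 (13.9 and 4.16). Most *LTF* points lie above the line and 557, 604 and 664 below.

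The levels of *LCN2* and *BPI* on D55 and D105 were related across heifers. Across the 23 heifers, on log2(CPM + 1), Pearson's r was 0.676 for *LCN2* (permutation p = 0.00041, 0.00246 adjusted over 12 relations) and Spearman's rho was 0.672 (p = 0.00067, adjusted 0.00804). For *BPI* r was 0.673 (permutation p = 0.00035, adjusted 0.00246) and rho was 0.603 (p = 0.00268, adjusted 0.0161). Without the 2 heifers farthest from the median of D55 (590 and 609 for *LCN2*, 533 and 637 for *BPI*), r was 0.551 and 0.531, each with an adjusted permutation p of 0.06, so both relations rested in part on those heifers.

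Within AI, IVP-Normal and IVP-LOS heifers r was 0.68, 0.964 and 0.31 for *LCN2* and 0.774, 0.5 and 0.732 for *BPI*. Among heifers whose D105 library was in BACKUP it was 0.57 for *LCN2* and 0.73 for *BPI*. Heifer 519 had the highest *LCN2* on both days (68.7 and 76.4 CPM). For *LTF* and *PGLYRP1* r was 0.343 and 0.267 (permutation p = 0.111 and 0.221, adjusted 0.167 and 0.294), with rho of 0.135 and 0.308 (p = 0.538 and 0.153, adjusted 0.587 and 0.23). Their r within AI, IVP-Normal and IVP-LOS heifers was 0.202, -0.151 and 0.554 for *LTF* and 0.908, 0.0547 and 0.0472 for *PGLYRP1*.

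Against the mean log2 level of the mature neutrophil list on D105, r was 0.623 for *BPI* (permutation p = 0.00173, adjusted 0.00692, rho 0.547, p = 0.00758, adjusted 0.0303) and 0.511 for *LTF* (permutation p = 0.0132, adjusted 0.0397, rho 0.48, p = 0.0216, adjusted 0.0647). Without heifers 637 and 664 these fell to 0.457 and 0.39 (adjusted permutation p = 0.115 and 0.162). Within AI, IVP-Normal and IVP-LOS heifers r was 0.0494, 0.173 and 0.932 for *BPI* and -0.496, 0.638 and 0.716 for *LTF*, so the relation of *BPI* did not hold within AI or IVP-Normal heifers and that of *LTF* had the other sign in AI heifers. For *LCN2* r was -0.408 (permutation p = 0.0527, adjusted 0.127) and for *PGLYRP1* 0.204 (p = 0.35, adjusted 0.382). In AI, IVP-Normal and IVP-LOS heifers apart it was -0.401, 0.0308 and -0.368 for *LCN2* and -0.852, 0.424 and 0.509 for *PGLYRP1*. On D55 r lay between -0.236 and 0.365 for the 4 members, with adjusted permutation p of 0.166 to 0.4.

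*LCN2* varied apart from the other members. Over the 46 libraries, which share heifers, days and sets, r between log2 levels was 0.592 for *LTF* and *PGLYRP1*, 0.397 for *LTF* and *BPI*, and 0.317 for *PGLYRP1* and *BPI*, whereas *LCN2* had -0.0273, -0.0256 and -0.179 with the 3. These values are a description, as are those with other genes. Among genes that are no members, the 10 with the highest r with the mean of the 4 members were *PTX3* (0.755), *MMP9* (0.683), *GPAT3*, *PTPN5*, *OOSP2*, *MGAM*, *CCDC170*, *RAB20*, *LOC107131803* and *ALPL* (0.66). With *LCN2* alone the r of these 10 genes lay between -0.216 and 0.0603.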

How the data were processed

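After quality trimming, the authors ran HISAT2 2.1.0 against ARS-UCD1.2 and used HTSeq for the NCBI table, whose deposited values are raw counts. The Ensembl table was not used here, since its identifiers are not paired with names. Columns and groups were matched through the labels. The summary lines of HTSeq were left out of library totals (reads on no feature were 19.64% to 32.39%). Members and gene lists were chosen with earlier results of these data known. Comparisons used R 4.3.3 and edgeR 4.0.16 (TMM, filterByExpr with a minimum count of 10, quasi-likelihood F-test, Benjamini-Hochberg FDR at most 0.05 over all genes tested), with the compared groups in the fit. The standard error was |log2 fold change| divided by the square root of F. Correlations used log2(CPM + 1), with 100000 permutations, or exact ones within groups, in SciPy 1.17.1, and were two-sided. Alternatives included DESeq2 1.42.0. Fits were tested on simulated data. Each heifer gave both libraries of her 2 days, so heifer numbers pair them. The deviations of same-numbered libraries from their group means correlated with a mean r of 0.516 in AI, 0.526 in IVP-Normal and 0.546 in IVP-LOS heifers (lowest 0.28). Reads on genes per library (median 22934799.5) limit members with few reads, and counting intervals cover counting error only. By the fixed rule, the members, up to 4 genes per granulocyte list with the smallest FDR in AI heifers, and the 10 genes most like the members were named. No sequences are shown, as none were given for these genes.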

Additional observations from a re-analysis of the deposited data

Results flagged for a closer look

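The level of *BPI* in AI heifer 533 on D55, 1.73 CPM, lay far from the other 7 AI heifers of that day, which had 8.41 to 16 CPM. On the scale of log2(CPM + 1), on which the rule was applied, the gap to the nearest heifer was 0.677 of the range of the group. With 24 groups examined, about 1 in 20 would be set apart by chance.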

How the results depend on the processing

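In AI heifers 1 of 4 members tested was called between days, and 2 were called by the likelihood ratio tests of edgeR and DESeq2 and with heifer as a replicate block (*PGLYRP1* beside *LTF*); with single heifers left out the number was 1 to 2 (2 without 517). Of 15248 genes in AI heifers, the main fit called 1517, the tests of edgeR and DESeq2 1601 and 1966, and the block 2603. The block changed no other call of a member. In IVP-Normal heifers it was 0 to 1 with single heifers left out (0 without 560, 628 or 688). On D105, for heifers 604 and 664, it was 0, against 2 by DESeq2 (*LTF*, FDR 0.0456, and *LCN2*, FDR 0.0431) and 1 within BACKUP (*LCN2*). Of all genes, the main fit of the pair called 3550 of 16841, DESeq2 4464 of 16841 and the fit within BACKUP 4976 of 16634. Values that changed sign were never called. In the IVP-LOS comparison of days, *LCN2* went from 0.13 to -0.13 without 604 and 664, and *BPI* from 0.51 to -0.69 by DESeq2, -0.15 with the block, -0.16 with the block and no filter (chosen after seeing the data) and -0.25 without heifer 637 (range -0.25 to 0.69 with single heifers left out). On D105 *BPI* in IVP-LOS against IVP-Normal heifers went from 0.08 to -1.12 without 637, and *CATHL2* for the pair ranged from -0.54 (without 604) to 1.66. The cause was not tested. Of the other values, 395 for single genes and 96 counts were rated as unchanged. For single genes this meant the same side of the threshold, and a change of sign within the standard error was allowed where neither fit was called. A count was rated so if it was equal or close to that of the main fit. The Ensembl table was not run. Few reads limit *LTF*, *PGLYRP1* and the cathelicidins.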
